A study of Mus musculus with 4 samples.

Results

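A set of 10 neuronal microtubule-associated and growth-cone genes, Mapt, Dcx, Map1b, Map2, Stmn1, Stmn2, Dpysl3, Gap43, Dclk1 and Gas7, were described in the developing mouse neocortex with and without a conditional knockout of Tut1. They were chosen by name as cytoskeletal regulators that newborn neurons turn on, with Mapt, Dcx and Gas7 at their head, and with their difference between the groups already known. All 10 of 10 were found among the 16449 genes of the count table. In both libraries labelled Tut1 KO, 9 of the 10 genes lay above both wild-type (WT) libraries, beside 22.1% of all genes tested, and Mapt and Gas7, at 3.55-fold and 3.34-fold, stood furthest apart, whereas Map2 overlapped between the groups.

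Microtubules are polymers of tubulin that fill the axon and dendrites of a neuron and carry its transport. Microtubule-associated proteins such as tau (Mapt), MAP1B, MAP2 and doublecortin (Dcx) bind and stabilise the polymer, stathmins bind free tubulin and promote its disassembly, and proteins of the growth cone, the motile tip of the axon, couple microtubules to actin and the membrane. In the embryonic cortex, neural stem cells divide at the ventricle, and their neuronal daughters turn on doublecortin, stathmin 2 and GAP-43 as they migrate outward and grow axons.

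The tissue was the micro-dissected dorsal and medial pallium, the part of the telencephalon that forms the neocortex, taken at E11.5 (embryonic day). Tut1, which encodes the terminal uridylyl transferase that adds uridines to U6 snRNA, was the gene deleted. The Tut1 KO libraries (n = 2) came from Tut1 f/f;Emx1-Cre embryos, in which Cre from the Emx1 locus acts in neural stem cells of this region, and the WT libraries (n = 2) from embryos that the study lists as Tut1 f/f, so both groups carried the floxed alleles. Cre and the deletion occur together and cannot be told apart. Polyadenylated RNA was sequenced on Nanopore, and the values were raw counts per gene. How many embryos made up a library was not stated, nor whether the KO-labelled libraries came from separate embryos, so the spread between those may be technical.

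The table held 305642 to 397150 counts per library, and 5878 genes had enough counts to be tested. Their median count was 19 to 25 per library, so a gene such as Gap43, with 4 to 19 counts, rested on few reads. Tut1 itself had 6 and 11 WT counts and 29 and 25 KO-labelled counts, a difference of 1.71 ± 0.40 on the log2 scale (SE; adjusted p = 0.0113, edgeR quasi-likelihood test with Benjamini-Hochberg adjustment). This went against the label, although reads from any part of the gene are counted, and the loss of the floxed exon cannot be seen here. Each direction below is therefore between libraries as labelled. WT replicate 1 was also the only library with Xist counts (64, against 0 in the other 3) and had 0 counts of the Y-linked gene Eif2s3y (36 in WT replicate 2, 42 and 27 in the KO-labelled libraries), so it differed in sex from the rest, and the WT libraries were not made from the same embryos.

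Levels are given as CPM, counts divided by the library size after adjustment by the trimmed mean of M values, and differences as the fitted log2 fold change, Tut1 KO over WT, with its standard error. Because the genes were picked with this difference known, their differences are a description and carry no p-value. In bulk tissue, more cells of a type and more RNA per cell cannot be told apart.

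**Figure D1:**
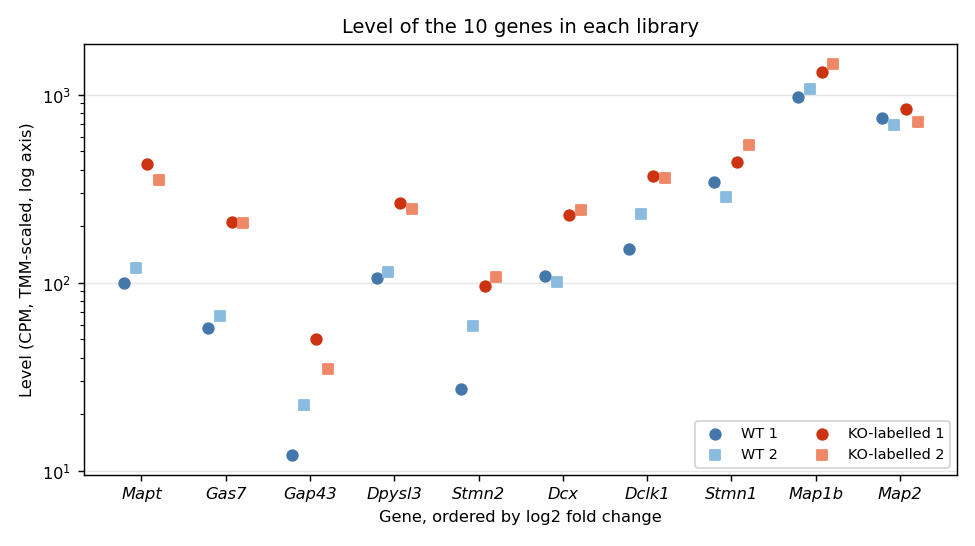
Level of each of the 10 genes in each of the 4 libraries, in CPM on a log axis, with genes ordered by log2 fold change. Points are single libraries of the WT and Tut1 KO-labelled groups. For every gene but Map2 both KO-labelled points lie above both WT points, as they do for 22.1% of all genes tested, and the log2 fold change runs from 1.83 for Mapt to 0.12 for Map2.

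Tau and MAP2 belong to one family of proteins that bind along microtubules, tau known for the axon and MAP2 for dendrites. Mapt (ENSMUSG00000018411, GRCm38 chr11:104231390-104332090, plus strand) gave 33 and 43 counts in WT, against 162 and 101 in the KO-labelled libraries. In CPM this was 99.96 and 120.1 against 430.5 and 350.8, and the lowest KO-labelled library lay 2.92-fold above the highest WT library. The groups therefore stood far apart relative to their own spread, with means of 110.0 ± 14.2 and 390.7 ± 56.4 CPM (SD, n = 2 each) and a log2 fold change of 1.83 ± 0.22.

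Map2 (ENSMUSG00000015222, chr1:66175273-66442583, plus strand) stood at 249 and 247 counts in WT, compared with 318 and 206 in KO-labelled libraries. Its levels were 754.2 and 689.9 CPM in WT and 845.1 and 715.5 CPM in KO-labelled libraries. The second KO-labelled library lay between the WT libraries, so the groups overlapped, and the log2 fold change was 0.12 ± 0.15. Its sign turned to -0.01 when KO replicate 1 was left out. An antisense gene inside Map2, Gm10558, had 20 and 10 WT counts and 10 and 7 KO-labelled counts, and whether counting used strand was not stated.

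The ratio of the paired genes does not depend on library scaling. For each 100 counts of Map2 there were 13.3 and 17.4 counts of Mapt in WT, and 50.9 and 49.0 in the KO-labelled libraries. As a share of Mapt and Map2 counts together, Mapt made up 11.7% (95% Clopper-Pearson interval 8.19% to 16.0%) and 14.8% (10.9% to 19.4%) in WT, and 33.8% (29.5% to 38.2%) and 32.9% (27.7% to 38.5%) in the KO-labelled libraries. The intervals cover counting error only, not the spread between libraries, and since Mapt was picked on this contrast they describe the precision of each share and test nothing.

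MAP1B, a large protein of growing axons, comes from a family distinct from tau and MAP2. Map1b (ENSMUSG00000052727, chr13:99421446-99516540, minus strand) had the most counts of the 10 genes, 323 and 382 in WT and 497 and 422 in the KO-labelled libraries. These were 978.4 and 1067 CPM against 1321 and 1466 CPM, so the groups did not overlap, but the lowest KO-labelled library lay only 1.24-fold above the highest WT library. Its log2 fold change was 0.44 ± 0.13, far under that of Mapt. The same-strand gene 5330431K02Rik, which overlaps Map1b, gave 28 and 32 counts in WT, against 24 and 27 in the KO-labelled libraries.

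Doublecortin and its relative DCLK1, which joins a doublecortin domain to a kinase, bind microtubules of migrating neurons. Dcx (ENSMUSG00000031285, chrX:143855842-143933311, minus strand) had 36 counts in each WT library and 86 and 70 in the KO-labelled libraries. Its levels were 109.0 and 100.6 CPM in WT against 228.5 and 243.1 CPM. Replicates of a group differed little beside the gap of 2.10-fold between the groups, and the log2 fold change was 1.17 ± 0.24. Dcx lies on the X chromosome, and the WT libraries, which differed in sex, had the same Dcx count.

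Dclk1 (ENSMUSG00000027797, chr3:55242364-55539068, plus strand) stood at 50 and 83 counts in WT, compared with 140 and 104 in KO-labelled libraries. In CPM it stood at 151.5 and 231.8 in WT and at 372.0 and 361.2 in KO-labelled libraries, so its WT libraries differed by 1.53-fold while its KO-labelled libraries lay close together. The log2 fold change of 0.93 ± 0.21 became 0.65 without WT replicate 1 and 1.26 without WT replicate 2. Counts of Dcx per 100 counts of Dclk1 stood at 72.0 and 43.4 in WT, compared with 61.4 and 67.3 under the KO label, and overlapped between the groups.

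RefSeq start-site windows (GRCm38.p6) were matched for 4 of the 10 genes, Dcx, Dclk1, Map1b and Map2. The 250 bases before their starts are shown because these were the genes with a window, and they include both doublecortin relatives and Map2, the gene that overlapped between the groups. They read 5′ to 3′ on the strand of the gene, and capitals mark matches, on either strand, to the E-boxes CAGCTG and CAGATG, the TATA box TATAAA and the GC box GGGCGG.
Dcx, chrX:143933220-143933469, minus strand: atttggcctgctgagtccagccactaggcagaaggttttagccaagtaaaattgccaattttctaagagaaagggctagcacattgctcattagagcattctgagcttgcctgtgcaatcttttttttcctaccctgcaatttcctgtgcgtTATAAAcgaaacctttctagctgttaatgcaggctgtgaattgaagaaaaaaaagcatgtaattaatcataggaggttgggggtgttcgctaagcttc
Dclk1, chr3:55242114-55242363, plus strand: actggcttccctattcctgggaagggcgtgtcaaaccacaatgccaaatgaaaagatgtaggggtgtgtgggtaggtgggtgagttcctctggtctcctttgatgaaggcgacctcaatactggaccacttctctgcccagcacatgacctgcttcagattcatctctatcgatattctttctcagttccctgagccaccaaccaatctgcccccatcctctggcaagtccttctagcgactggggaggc
Map1b, chr13:99516603-99516852, minus strand: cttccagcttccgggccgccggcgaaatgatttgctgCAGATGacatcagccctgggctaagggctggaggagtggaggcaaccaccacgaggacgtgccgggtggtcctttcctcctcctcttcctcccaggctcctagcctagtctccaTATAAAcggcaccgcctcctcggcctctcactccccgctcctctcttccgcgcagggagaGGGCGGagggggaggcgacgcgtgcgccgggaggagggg
Map2, chr1:66175079-66175328, plus strand: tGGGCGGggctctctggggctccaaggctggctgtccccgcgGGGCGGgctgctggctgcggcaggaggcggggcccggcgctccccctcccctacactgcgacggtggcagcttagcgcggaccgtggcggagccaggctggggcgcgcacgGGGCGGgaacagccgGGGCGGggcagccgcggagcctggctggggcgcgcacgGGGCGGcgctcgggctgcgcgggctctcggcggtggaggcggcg

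The windows differed most in base composition. Their GC content was 41.6% for Dcx, 52.4% for Dclk1, 66.4% for Map1b and 81.2% for Map2, against a median of 52.4% over the 32851 windows of the table, in which Map2 stood at the 99.1 percentile. TATAAA occurred in the windows of Dcx and Map1b and in 12.4% of all windows, and GGGCGG occurred 5 times in the Map2 window, 1 time in that of Map1b and in 32.7% of all windows. CAGATG was found in the Map1b window and in 14.4% of all windows, and CAGCTG in none of the 4, against 13% of all windows. A match is a description of letters, and its absence says only that they do not occur in this window. Dcx and Dclk1 each had a second start in the table.

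**Figure D2:**
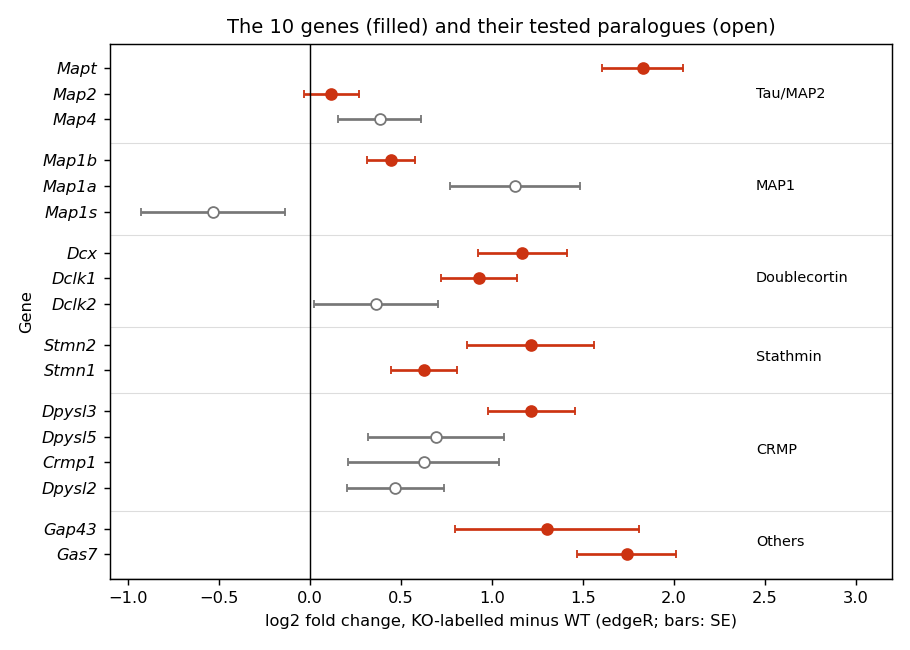
Log2 fold change, Tut1 KO-labelled over WT, of the 10 genes (filled) and their tested paralogues (open), grouped by protein family, with bars of 1 standard error. Mapt, at 1.83, stands apart from Map2 and Map4 of its family, and Map1s, at -0.53, is the only paralogue below 0.

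Stathmins sequester tubulin dimers. Stmn1 is made in dividing progenitors and in neurons, and Stmn2 in neurons. Stmn2 (ENSMUSG00000027500, chr3:8509360-8561606, plus strand) had 9 and 21 WT counts and 36 and 31 KO-labelled counts, or 27.3 and 58.7 CPM against 95.7 and 107.7 CPM. The KO-labelled libraries were alike, but the WT libraries differed by 2.15-fold, which was close to the 2.31-fold between the groups. The log2 fold change of 1.21 ± 0.35 fell to 0.77 without WT replicate 1 and reached 1.86 without WT replicate 2.

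Stmn1 (ENSMUSG00000028832, chr4:134468320-134473843, plus strand) gave 114 and 103 counts in WT, against 166 and 155 in the KO-labelled libraries. Levels were 345.3 and 287.7 CPM in WT and 441.1 and 538.3 CPM in KO-labelled libraries, and the lowest KO-labelled library lay 1.28-fold above the highest WT library. With a log2 fold change of 0.62 ± 0.18 it differed less than Stmn2. Counts of Stmn2 per 100 counts of Stmn1 stood at 7.89 and 20.4 in WT, compared with 21.7 and 20.0 under the KO label, so the WT library with the low ratio was replicate 1 and the other WT library lay within the KO-labelled pair.

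Dpysl3 encodes a collapsin response mediator protein, a family that binds tubulin and acts downstream of the guidance cue semaphorin. Dpysl3 (ENSMUSG00000024501, chr18:43320984-43438286, minus strand) stood at 35 and 41 counts in WT, compared with 100 and 71 in KO-labelled libraries. Its levels were 106.0 and 114.5 CPM in WT and 265.7 and 246.6 CPM in KO-labelled libraries. Replicates of either group differed by 1.08-fold, far less than the gap of 2.15-fold between the groups, and the log2 fold change was 1.22 ± 0.24. Its closest paralogue by name, Dpysl2, had 48 and 35 WT counts and 51 and 59 KO-labelled counts, so Dpysl3 per 100 counts of Dpysl2 was 72.9 and 117.1 in WT and 196.1 and 120.3 in the KO-labelled libraries, the groups standing only just apart.

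GAP-43 is a membrane-bound phosphoprotein of the growth cone, and Gas7 encodes an F-BAR protein first known from growth-arrested cells that promotes the outgrowth of neurites. Gap43 (ENSMUSG00000047261, chr16:42248442-42340651, minus strand) had the fewest counts of the 10 genes, 4 and 8 in WT and 19 and 10 in the KO-labelled libraries. These gave 12.1 and 22.3 CPM against 50.5 and 34.7 CPM. Although the groups did not overlap, replicates differed by 1.84-fold in WT and 1.45-fold in the KO-labelled group, and the log2 fold change of 1.30 ± 0.51 ran from 0.94 without WT replicate 1 to 1.80 without WT replicate 2.

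Gas7 (ENSMUSG00000033066, chr11:67455437-67688990, plus strand) gave 19 and 24 counts in WT, against 79 and 60 in the KO-labelled libraries. Its levels were 57.6 and 67.0 CPM in WT and 209.9 and 208.4 CPM in KO-labelled libraries. The lowest KO-labelled library lay 3.11-fold above the highest WT library, the widest gap of the 10 genes, and the log2 fold change was 1.74 ± 0.27. Gas7 kept a near fixed proportion to Mapt, with 57.6 and 55.8 counts per 100 counts of Mapt in WT and 48.8 and 59.4 in the KO-labelled libraries. Both head the set with similar log2 fold changes, 1.83 for Mapt and 1.74 for Gas7, from which a like proportion in both groups follows.

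**Figure D3:**
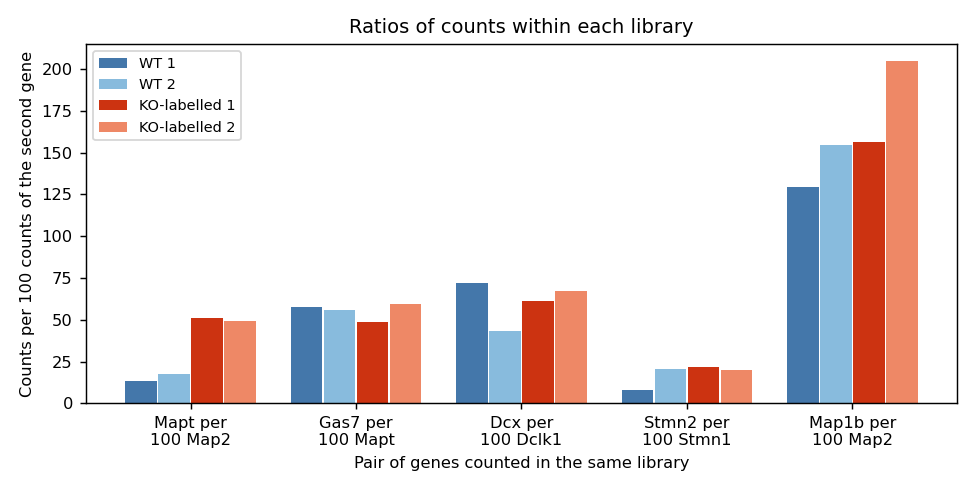
Counts of one gene per 100 counts of another in each of the 4 libraries, with bars starting at 0. Mapt per Map2 separates the groups, with at most 17.4 in WT and at least 49.0 in KO-labelled libraries, whereas Gas7 per Mapt lies between 48.8 and 59.4 in all 4.

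In all, the 10 genes took up 872 and 988 of the WT counts and 1603 and 1230 of those under the KO label, or 0.242% and 0.252% against 0.404% and 0.402% of all counts. Map1b and Map2 made up most of the WT total, and without them the remaining 8 genes stood at 300 and 359 counts in WT, compared with 788 and 602 in KO-labelled libraries. All 10 had a log2 fold change above 0, from 0.12 to 1.83 with a median of 1.19, beside a median of -0.01 over the genes tested, of which 48.4% were above 0. Both KO-labelled libraries lay above both WT libraries for 9 of the 10, beside 22.1% of the genes tested. At an adjusted p below 0.05, 5 of the 10 were called higher and none lower (Mapt, Gas7, Dpysl3, Dcx and Dclk1), beside 2.06% of the genes tested called in either direction (1.4% higher and 0.663% lower), and since the genes were picked on this contrast nothing is read from these counts. The number called was 8 when libraries were scaled by total counts alone, 4 without WT replicate 1, 6 without WT replicate 2, 1 without KO replicate 1 and 3 without KO replicate 2, and Mapt was among them each time. DESeq2 called 1 of the 10, Mapt, and gave no adjusted p for Gas7, Stmn2 and Gap43.

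Among themselves the 10 genes formed an order rather than a block. Over the 4 libraries, the closest centred log2 CPM profiles were those of Dcx and Dpysl3 (Euclidean distance 0.210) and of Mapt and Gas7 (0.231), and the farthest were those of Mapt and Map2 (1.69). Divided by the length of the longest annotated transcript, WT levels ran from 298.6 CPM per kb for Stmn1 and 115.4 for Map2 through 86.6 for Map1b, 24.1 for Dclk1 and 20.9 for Mapt to 8.81 for Gas7. In the KO-labelled libraries Stmn1, Map2 and Map1b still stood highest on this scale, at 462.0, 124.7 and 118.0 CPM per kb, and Mapt followed at 74.4, above Dpysl3 at 46.8 and Dclk1 at 46.0. Without division by length the order differed, with WT means of 1023 CPM for Map1b, 722.1 for Map2 and 316.5 for Stmn1, and long reads do not by themselves gather counts in proportion to length, so an order between genes depends on the scale.

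Most of the 10 were long genes. Their median span on the genome was 97.9 kb, beside 25.8 kb over the genes tested, and 8 of them fell in the longest of 4 equal classes of genes (61.2 kb or more), while Stmn1, at 5.52 kb, fell in the shortest. Over all genes in the longest class the median log2 fold change was 0.08 and 2.72% were called higher, beside medians of -0.06, -0.03 and -0.02 in the other classes from short to long. With the trend of log2 fold change on transcript length removed, the median of the 10 was 1.06 and the value of Map2 was -0.01. No fit removed a trend on gene span, and its part in the difference was not tested.

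Relatives of the 10 genes lay on both sides of 0. Of 11 listed paralogues of the 10 genes, 10 were in the table and 7 were tested, and edgeR called none of the 7 in either direction (1 at an unadjusted p below 0.05, 0 called by DESeq2 and 0 by limma-voom), with 6 above and 1 below 0 and a median log2 fold change of 0.47. Map1a, whose product is the MAP1 protein of mature neurons, came nearest, with 14 and 13 WT counts against 30 and 27 and a log2 difference of 1.13 ± 0.36 (edgeR adjusted p = 0.0908). Map1s, at 17 and 24 counts against 11 and 16, differed by a log2 value of -0.53 ± 0.39 (edgeR adjusted p = 0.599). The values of Map4, which serves outside neurons as well, were 49 and 70 counts against 89 and 61, and those of the kinase Dclk2 21 and 19 against 32 and 18. Of the collapsin response mediator family, Crmp1 (19 and 7 against 23 and 16 counts), Dpysl2 and Dpysl5 (14 and 14 against 28 and 16) had log2 fold changes of 0.62 ± 0.41, 0.47 ± 0.27 and 0.69 ± 0.37. Stmn3, Stmn4 and Dpysl4 had too few counts to test, and Stmn4, a neuronal stathmin, had 4 and 1 WT counts and 13 and 7 KO-labelled counts. Dclk3 was not analysed here.

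**Figure D4:**
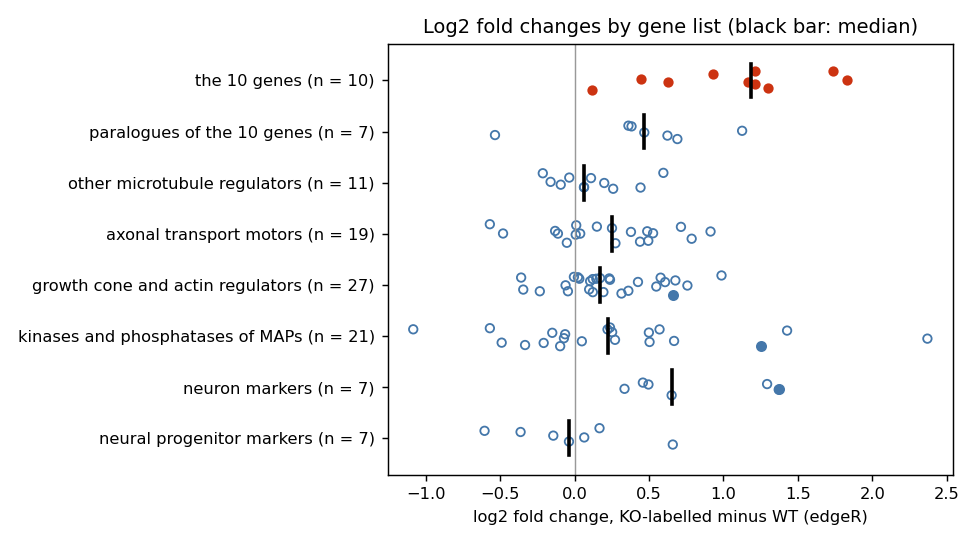
Log2 fold change of every tested gene in the 10-gene set and in related lists and cell markers, 1 point a gene, with a black bar at the median. The 10 genes are filled red, with calls not marked. Genes of the other lists are blue, filled where called at an adjusted p below 0.05 (edgeR) and open where not. The median is 1.19 for the 10 genes, 0.65 for neuron markers and between 0.06 and 0.47 for the related cytoskeletal lists.

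Genes of the wider cytoskeletal machinery were called at about the share of all genes tested, but more of them lay above 0 than below. Over 5 related lists, 117 of 122 genes were in the table and 85 were tested. The edgeR quasi-likelihood test called 2 higher and none lower, beside 2.06% of all genes tested. The median log2 fold change was 0.20, with 60 above and 25 below 0, beside 48.4% above 0 over all genes tested. For 30 of the 85 both KO-labelled libraries lay above both WT libraries, and for 7 below. These compare with 22.1% and 20.8% of all genes tested. At an unadjusted edgeR p below 0.05 there were 15 of the 85. By list, the median was 0.06 for 11 tested microtubule regulators such as end-binding and severing proteins (0 called, 0 at an unadjusted p below 0.05), and 0.25 for 19 motors of axonal transport (0 called by edgeR, DESeq2 and limma-voom, 4 at an unadjusted p below 0.05). It was 0.17 for 27 growth cone and actin regulators (1 called, 5 at an unadjusted p below 0.05). For 21 kinases and phosphatases of microtubule-associated proteins it was 0.22, with values from -1.08 to 2.37 (1 called, 5 at an unadjusted p below 0.05). The genes called were Tmsb10, an actin-monomer-binding thymosin, with 127 and 121 WT counts against 227 and 154 (log2 fold change 0.66 ± 0.17, edgeR adjusted p = 0.0282), and Cdk5r1, the activator of the kinase Cdk5 that acts on tau and doublecortin, with 16 and 16 against 41 and 33 counts (1.26 ± 0.32, edgeR adjusted p = 0.0276). Neither passed with any single library left out (adjusted p of 0.0958 to 0.369 for Tmsb10 and 0.0819 to 0.269 for Cdk5r1), and DESeq2 called none of the 85 but gave no adjusted p for Cdk5r1.

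The substrate of these proteins, tubulin, was read through 4 genes. Tuba1a, the main alpha-tubulin of newborn neurons, rose from 179 and 216 counts in WT to 332 and 258 in the KO-labelled libraries (log2 fold change 0.63 ± 0.15, edgeR adjusted p = 0.0117), although the call was lost with any 1 library left out (adjusted p of 0.0518 to 0.218) and in DESeq2 (0.0954). Tubb3, the beta-tubulin used as a neuron marker, had 36 and 33 against 55 and 23 counts, so its groups overlapped and the log2 difference was 0.21 ± 0.29 (edgeR adjusted p = 0.836). Tubb2b, with 61 and 63 against 94 and 64 counts, stood without overlap on the CPM scale but did not pass the test (0.39 ± 0.22, edgeR adjusted p = 0.443), and Tubb2a, with 5 and 3 against 10 and 6 counts, was not tested.

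The summed level of neuron markers was higher in both KO-labelled libraries, and that of progenitor markers overlapped. Of 15 neuron markers 7 were tested, and all 7 lay above 0 with a median log2 fold change of 0.65, 6 of them with both KO-labelled libraries above both WT libraries, beside 48.4% above 0 and 22.1% without overlap over all genes tested. Among the 8 not tested for low counts, Nefm (9 and 2 against 2 and 2), Nhlh2 (6 and 1 against 4 and 1) and Neurod1 (1 and 4 against 2 and 2) were not higher in mean CPM. Nhlh1 (9 and 8 against 10 and 8) and Syt1 (2 and 4 against 9 and 3) overlapped between the groups. Snap25 (2 and 1 against 8 and 2) and Ina (5 and 8 against 12 and 7) were higher in both KO-labelled libraries in CPM. The 15 markers summed to 621.0 and 525.1 CPM in WT and 900.9 and 941.2 CPM in the KO-labelled libraries, and Nefl was at 0 in all 4. One, Rtn1, a reticulon of neuronal endoplasmic reticulum, was called, with 20 and 19 counts against 55 and 43 (log2 fold change 1.37 ± 0.29, edgeR adjusted p = 0.0049), though not without KO replicate 1 (0.199) or KO replicate 2 (0.102). Of 8 progenitor markers, 7 were tested and edgeR called none (0 at an unadjusted p below 0.05, 0 by DESeq2 and 0 by limma-voom), with summed levels of 1024 and 1103 CPM against 1002 and 1038 CPM.

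Set against the neuron markers, the 10 genes came apart. The 15 markers together gave 205 and 188 counts in WT, against 339 and 271 in the KO-labelled libraries. Per 100 of these counts, the 10 genes summed to 425.4 and 525.5 in WT and 472.9 and 453.9 in the KO-labelled libraries, which overlapped. Mapt, however, gave 16.1 and 22.9 in WT and 47.8 and 37.3 in KO-labelled libraries, and Gas7 gave 9.27 and 12.8 against 23.3 and 22.1, both without overlap. Dcx (17.6 and 19.1 against 25.4 and 25.8) and Dpysl3 (17.1 and 21.8 against 29.5 and 26.2) were also higher per neuron marker count in both KO-labelled libraries, by less. Stmn1, at 55.6 and 54.8 against 49.0 and 57.2, overlapped, and Map2, at 121.5 and 131.4 against 93.8 and 76.0, was lower in both KO-labelled libraries, as was Map1b by a small margin (157.6 and 203.2 against 146.6 and 155.7). Dclk1 (24.4 and 44.1 against 41.3 and 38.4), Stmn2 (4.39 and 11.2 against 10.6 and 11.4) and Gap43 (1.95 and 4.26 against 5.60 and 3.69) overlapped. These ratios depend on the markers summed. In WT, Elavl2, Elavl3 and Elavl4 gave the most marker counts, and their log2 fold changes were 0.34, 0.65 and 0.50. That of Neurod6 was 0.46. Rtn1, Tbr1 and Neurod2, at 1.37, 1.29 and 1.37, lay above Dcx (1.17) and Dpysl3 (1.22).

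**Figure D5:**
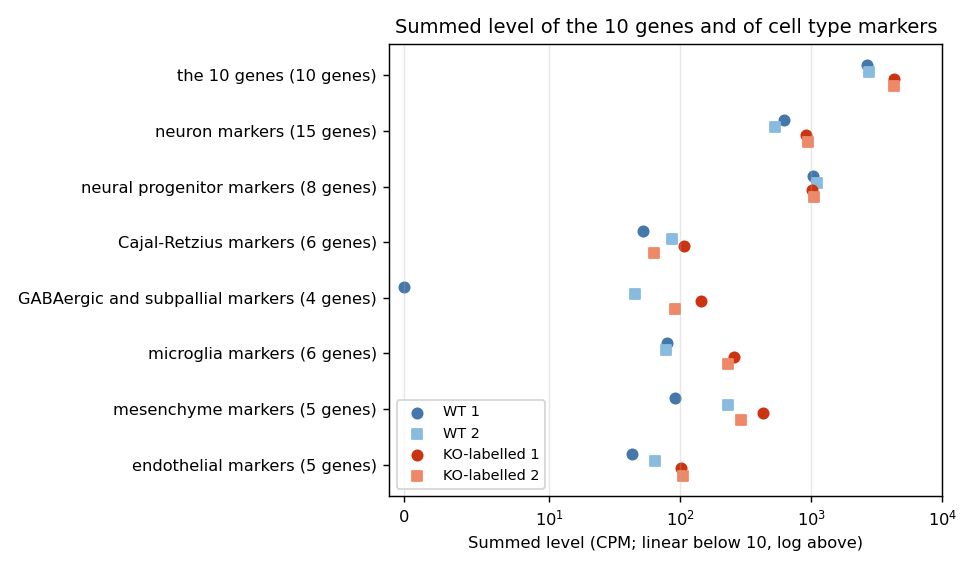
Summed level of the 10 genes and of lists of cell type markers in each of the 4 libraries, in CPM on an axis that is linear near 0 and logarithmic above. Sums of the 10 genes and of neuron, microglia, mesenchyme, endothelial and GABAergic markers are higher in both KO-labelled libraries than in both WT libraries. Those of progenitor and Cajal-Retzius markers overlap.

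Cells other than cortical neurons also left signals. Microglia markers summed to 78.8 and 78.2 CPM in WT and 257.8 and 229.2 CPM in the KO-labelled libraries, carried by Csf1r (16 and 20 against 58 and 34 counts) and Cx3cr1 (6 and 6 against 32 and 27), both called higher, while C1qa, C1qb, C1qc and P2ry12 had at most 5 counts in any library and C1qa was at 0 in both WT libraries. GABAergic and subpallial markers summed to 0 and 44.7 CPM in WT and 143.5 and 90.3 CPM in the KO-labelled libraries, with Dlx1 called (0 and 8 against 34 and 14 counts). Mesenchyme markers stood at 90.9 and 229.0 against 425.2 and 288.3 CPM, with Col1a2 called, and endothelial markers at 42.4 and 64.2 against 101.0 and 104.2 CPM, the 1 gene tested not being called. Cajal-Retzius markers, at 51.5 and 86.6 against 106.3 and 62.5 CPM, and red cell markers, at 799.7 and 1109 against 1262 and 868.3 CPM, overlapped, with Hbb-bh1, an embryonic globin, called lower at a log2 fold change of -1.80, though not without WT replicate 2 (edgeR adjusted p = 0.565). Hba-x, another embryonic globin, lay the other way at 15 and 24 against 43 and 36 counts (1.07, edgeR adjusted p = 0.0563). None of the 5 genes called here passed the edgeR test without KO replicate 1 (adjusted p from 0.0741 for Cx3cr1 to 0.630 for Hbb-bh1). Csf1r, Col1a2 and Dlx1 were also lost without WT replicate 1 (0.0574, 0.127 and 0.0947) and without KO replicate 2 (0.0616, 0.0840 and 0.0735), and Hbb-bh1 without KO replicate 2 (0.0899). DESeq2 gave no adjusted p for any of the 5. Reln, Lhx5 and Calb2 of the Cajal-Retzius list were at 0 in both WT libraries. The part of these cells in the differences of the 10 genes was not tested.

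Profiles over the 4 libraries, compared among 2135 genes with a mean count of at least 30, placed other genes beside the leading members. Nearest to Mapt were Apoe (distance 0.150), Gas7 (0.231), Clmp (0.327), Ank3 (0.459) and Csf1r (0.496), of which Apoe, a lipid carrier of glia and macrophages, stood at 10 and 15 counts in WT, compared with 61 and 34 in KO-labelled libraries. Nearest to Gas7 were Clmp (0.174), Mapt, Apoe (0.360), Ank3 (0.390) and Rtn1 (0.452). Dcx had the closest neighbours, Myt1l (0.0937), a transcription factor of neurons, with 43 and 46 against 112 and 88 counts, and Islr2 (0.0991), an axonal membrane protein, with 64 and 67 against 143 and 123, followed by Sh3kbp1 (0.157), Rtn1 (0.178) and Selenow (0.194). With 4 libraries in 2 groups, such a distance mainly ranks genes by their difference between the groups.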

How the data were processed

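Gene-level raw counts of 2 WT and 2 Tut1 KO-labelled Nanopore libraries were analysed as the authors deposited them. Per the study's methods, minimap2 placed the reads on Ensembl mouse transcripts, and FLAIR was used for splicing and gene expression. How transcripts were summed to genes, and how multiply mapping or opposite-strand reads were treated is not given in the sources used here. Long-read counts are not divided by transcript length and carry no molecular identifiers. Of 16449 gene IDs, 16436 matched GENCODE M21 (GRCm38), and 13 did not.

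Counts were tested with edgeR 4.0.16 in R 4.3.3 (trimmed mean of M values, default expression filter, quasi-likelihood F test, two-sided, Benjamini-Hochberg adjusted over 5878 genes). DESeq2 1.42.0 and limma-voom (limma 3.58.1) were alternatives, beside other scalings and filters, a replicate block, thinning to the smallest library, removal of a length trend by loess, and leaving out each library. On simulated counts for 5878 genes, 41.4% of 2-fold and 88.2% of 4-fold changes were recovered, with 4.42% false calls.

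The 10 genes, the related lists and the markers were chosen with earlier results of these data known. Genes named otherwise were Tut1, all paralogues, Tubb3 and Tuba1a, list genes past the threshold (at most 5 a list), markers at 0 counts, and the 5 nearest profiles to Mapt, Dcx and Gas7. Gm10558, 5330431K02Rik, Xist, Eif2s3y, Hba-x, Nefm, Nhlh2, Tubb2a and Tubb2b were added after their values were seen. So were the neuron markers Elavl2, Elavl3, Elavl4, Neurod1, Neurod2, Neurod6, Nhlh1, Tbr1, Snap25, Syt1 and Ina. Replicate numbers were not taken to pair the samples.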

Additional observations from a re-analysis of the deposited data

How the results depend on the processing

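Genes called over the 5878 tested numbered 121, while DESeq2 took in 15083 genes and the thinned fit 5351. DESeq2 gave 13, the replicate block 76 and thinning to the smallest library 16, and leaving out 1 library gave 3 (without KO replicate 1) to 108 (without WT replicate 2). Of the 10 genes, 5 were called, against 8 with total-count scaling, 1 with DESeq2, 3 after thinning, and 1 to 6 with a library left out. The 2 related genes called became 0 with DESeq2, the replicate block, the length trend removed and thinning, and 0 to 2 with a library left out, where the 2 called without WT replicate 1 were Ppp2r2b and Tmsb4x. The median log2 fold change of the 10 genes was 1.06 with the length trend removed and 0.86 to 1.26 with a library left out. For Map2, 0.12 as reported, the log2 fold change was -0.0138 with the length trend removed and ran from -0.0124 without KO replicate 1 to 0.23 without KO replicate 2. The cause was not tested, except that leaving out or thinning libraries leaves fewer counts. Of genes called, 67.8% were higher, against 81.4% with total-count scaling, 44.6% with the length trend removed, 38.5% of the 13 called by DESeq2 and 100% of the 3 called without KO replicate 1. The correlation of deviations between same-numbered libraries was -0.0614. It is 1 value shared by both pairs by construction, because each group of 2 libraries was centred on its own mean. Under the replicate block 5 of the 10 genes were called. Over single genes of the set, 106 alternative values kept direction and side of the threshold, 12 lost the call, 7 gained it and 2 changed sign. Gap43 rested on the fewest counts of the 10 genes.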
